A study of Mus musculus with 18 samples.

Results

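Cells at 21 h of estradiol were compared with cells at 14 h, over every probe set of the array and with most attention to the genes that copy DNA. The comparison used 6 of the 18 arrays of the series, 3 at each of the 2 times. All cells were G1E-ER4, 1 subclone of a mouse line made from embryonic stem cells in which Gata-1 had been disrupted, and both groups carried the same Gata-1-ER fusion, which needs estradiol to act. By the labels, the 14 h and 21 h groups differ in how long estradiol had been present and in nothing else. Replicates A, B and C are separate biological samples according to the labels. The samples used here hold no cells that lack the fusion and no untreated cells of 14 h or 21 h, so time in culture and time in estradiol cannot be told apart. The line is a culture model driven by 1 fusion protein, not a tissue.

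Red cell precursors divide a limited number of times while they fill with hemoglobin, and they leave the cell cycle before they lose the nucleus. DNA replication begins when the origin recognition complex, Cdc6 and Cdt1 load the ring of Mcm2 to Mcm7 onto DNA, which is called licensing. Cdc45 and other factors then turn the ring into a moving helicase, polymerases copy each strand while held by the Pcna clamp, and histones and methyl groups are put back behind the fork. Many of these genes are transcribed under E2f factors at the border of G1 and S phase, whereas the mitosis genes are mostly transcribed later in the cycle.

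The array is a 1-colour chip that reads each transcript with a group of short probes, a probe set, and gives it 1 signal, a linear intensity. Of 12422 probe sets tested, 117 were called higher at 21 h (0.942%) and 171 lower (1.38%), where called means an adjusted p below 0.05 in limma, Benjamini-Hochberg over all probe sets. In 284 of the 288 called, the 3 normalised values of one time lay beyond all 3 of the other. The calls rest on these same values, so this is no separate support. Of 8251 genes, called or not, 757 were apart in this way with 21 h higher and 735 with 21 h lower. Falls made up 59.4% of the calls, but only 40.1% (85 higher, 57 lower) when the arrays were instead scaled to a common median. Of the called probe sets, 29 rose and 68 fell by at least 1 on the log2 scale. With 1 probe set for each of 8251 genes, 96 genes were called higher (1.16%) and 137 lower (1.66%), and the median change over all genes was 0.006 on the log2 scale. The median signal of the arrays lay between 41.9 and 50.9 at 14 h and between 38.2 and 48.6 at 21 h. The mean correlation of an array with the others of its time was 0.957 to 0.963 at 14 h and 0.957 to 0.964 at 21 h.

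The cells carried red cell transcripts at both times. Hba-a1, an alpha globin, had mean signals of 17919 at 14 h and 23242 at 21 h, Klf1, an erythroid transcription factor, 3225 and 3530, Tfrc, the transferrin receptor, 2465 and 3412, and Epor, the erythropoietin receptor, 627 and 677. None of these 4 was called. Among the other red cell markers looked at, Slc4a1 (log2 change 3.01) and Alas2 (1.52) were called higher and Hbb-b2 (0.57) was not called, as described below. Most markers of other cells were dim. Those with a mean signal above 100 at 14 h or 21 h were 3 fibroblast, 2 neutrophil and macrophage, and 1 megakaryocyte marker. The summed signal of 7 megakaryocyte markers was 190.7 to 267.3 per array at 14 h and 174.3 to 228.6 at 21 h, that of 10 mast cell markers 128.5 to 283.5 and 167.9 to 230.7, that of 16 neutrophil and macrophage markers 568.3 to 831.8 and 530.8 to 787, that of 12 lymphocyte markers 402.4 to 549.9 and 359.1 to 640.7, and that of 12 fibroblast markers 645.4 to 1206 and 831.5 to 1292. Of these 56 different genes 0 were called by limma, and 4 higher and 1 lower had an unadjusted p below 0.05, as had 7.25% and 7.81% of all genes.

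Replication genes fell between 14 h and 21 h. Of 71 measured, from 85 in 6 lists, 22 were called lower (31%, against 1.66% of all genes) and 0 higher, 65 had a negative change, and the median log2 change was -0.73. At an unadjusted p below 0.05, 51 were lower and 0 higher in limma, against 7.81% and 7.25% of all genes. The summed signal of the 71 genes was 34089 in replicate A at 14 h, 48271 in B and 44055 in C, and 19952, 27251 and 27918 at 21 h, so the 21 h arrays all lay below the 14 h arrays. Replicate A was the lowest at both times. Its ratio of 3' to 5' signal for beta-actin was also the lowest at both (1.17 against 1.24 and 1.61 at 14 h, 0.968 against 1.07 and 1.39 at 21 h). This ratio is a measure of RNA quality, and a higher ratio marks more broken RNA. The part of RNA quality in the result was not tested. Without 14 h replicate A, 30 of the 71 genes were called lower, and without 21 h replicate A, 13, against 195 and 65 of all 8251 genes. The largest falls in the 6 lists were those of Pold2, a subunit of DNA polymerase delta, and Cdca7, a factor that takes part in DNA methylation, while the 7 licensing genes that were called fell 1.66-fold to 2.87-fold. Since the RNA came from whole cultures, fewer replicating cells and less of each transcript per cell cannot be told apart.

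**Figure D1:**
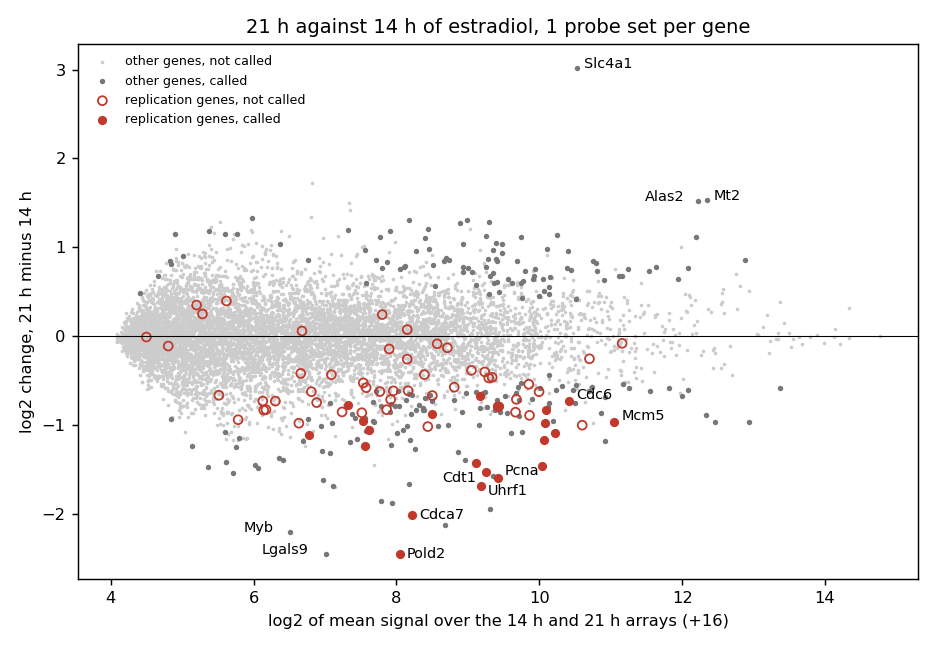
Each point is 1 gene, placed by the log2 of its mean signal over the 6 arrays plus 16 (x axis) and by its log2 change from 14 h to 21 h (y axis). Red filled points are the 22 replication genes called lower and red rings the other 49; all filled points lie below 0, and Pold2 at -2.44 is the lowest of them.

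The licensing genes held 7 of the 22 calls, out of 14 measured, with a median of -0.72. Cdt1, which brings the Mcm ring to the origin, read 631, 1021 and 1023 in replicates A, B and C at 14 h and 220, 361 and 297 at 21 h, a log2 change of -1.52 (SE 0.19, adjusted p = 0.000163). Every 21 h array was below every 14 h array. Cdc6, the loading ATPase, went from 1426, 1795 and 1779 to 908, 1106 and 1079, a change of -0.73 (SE 0.11, adjusted p = 0.00135). Cdc6 had been climbing before this step, as it was called higher from 0 h to 3 h and from 3 h to 7 h, so its 14 h arrays were the highest of the course.

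Of the 6 subunits of the Mcm ring, 5 fell. Mcm4 read 680, 822 and 883 at 14 h and 222, 271 and 357 at 21 h (log2 change -1.43, SE 0.20, adjusted p = 0.000454). Mcm7 read 1290, 1565 and 1485 and then 508, 641 and 822 (-1.16, SE 0.15, adjusted p = 0.000276). For both genes the lowest 14 h array was above the highest 21 h array. Mcm3 changed by -1.09 (adjusted p = 0.0196), and a second Mcm3 probe set by -1.02 (adjusted p = 0.0414). Mcm2 changed by -0.98 (adjusted p = 0.0419) and Mcm5, at 2025, 3498 and 2688 before and 1297, 1398 and 1685 after, by -0.97 (adjusted p = 0.0233). A second Mcm5 probe set, of uncertain target and below the array median, went from 28.7 to 43.6 (0.36, adjusted p = 0.781). The probe set of Mcm6 read 32.6, 4.6 and 5.7 at 14 h and 13.3, 4.9 and 10.7 at 21 h, all below the median signal of their arrays. The origin recognition complex itself was not called: Orc6 changed by -0.71 (adjusted p = 0.055), Orc5 by -0.61 (adjusted p = 0.0879), Orc2 by -0.43, Orc1 by -0.42 and Orc4 by 0.06. Gmnn, the inhibitor of Cdt1, changed by -0.71 (adjusted p = 0.13).

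Of 9 genes that switch on the helicase and hold the fork together, 5 were called lower, with a median of -0.95. Tipin, a fork protection factor, read 205, 309 and 239 at 14 h and 74.3, 109 and 105 at 21 h, a change of -1.24 (SE 0.21, adjusted p = 0.00257). Its partner Timeless changed by -1.02 and missed the threshold (adjusted p = 0.0653). Topbp1, which helps load Cdc45, changed by -1.05 (adjusted p = 0.00794), Mcm10, a helicase activator, by -1.11 (adjusted p = 0.0415), Wdhd1, a fork hub, by -0.95 (adjusted p = 0.0454), and Cdc45, a part of the active helicase, by -0.88 (adjusted p = 0.0414). Cdc7, the kinase that fires origins, changed by -0.73 (adjusted p = 0.254), and its activator Dbf4 by -0.01.

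Of 11 polymerase and primase genes 2 were called lower, with a median of -0.58. Pold2 read 298, 480 and 523 at 14 h and 65.9, 57.1 and 65 at 21 h, a 5.44-fold fall (log2 change -2.44, SE 0.17, adjusted p = 2.28e-07). At 30 h its arrays read 49.8, 50.9 and 67, close to the 21 h values. The name of its probe set carries the suffix _r, so the transcripts it reads are uncertain. Pold1, the catalytic subunit, went from 607, 760 and 726 to 393, 453 and 436, a change of -0.67 (SE 0.13, adjusted p = 0.00735). A second Pold1 probe set, dim and of uncertain target, went from 38.2 to 50.1 (0.33, adjusted p = 0.695). The remaining 9 were not called. Among these, Pola1, the catalytic subunit of polymerase alpha, changed by -0.86 (adjusted p = 0.0995), Prim1 and Prim2, the primase subunits, by -0.62 and -0.58, Pold3 by -0.26 and Pold4 by 0.24.

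Of 14 genes for the clamp, its loader, strand joining and single-strand binding, 3 were called lower. Pcna, the sliding clamp, read 715, 1200 and 1047 at 14 h and 150, 471 and 434 at 21 h (log2 change -1.59, SE 0.28, adjusted p = 0.00453). Replicate A was the lowest at both times, and the groups did not overlap. Rfc2, a clamp loader subunit, read 1140, 1586 and 1418 and then 732, 768 and 831, a change of -0.83 (SE 0.12, adjusted p = 0.000576). Rpa2, which covers single strands, changed by -0.77 (adjusted p = 0.0385). Rfc3, another loader subunit, changed by -0.75 (adjusted p = 0.055), Rpa1 by -0.85 (adjusted p = 0.109), Fen1, the flap nuclease, by -0.46 and Lig1, the replicative ligase, by -0.40.

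Genes that rebuild chromatin and methylation behind the fork had 3 of 12 called lower, and all 12 had a negative change. Cdca7 read 325, 500 and 561 at 14 h and 67.6, 118 and 120 at 21 h (log2 change -2.01, SE 0.21, adjusted p = 3.26e-05). Uhrf1, which guides the maintenance methyltransferase to newly copied DNA, read 746, 916 and 932 and then 171, 258 and 366 (-1.68, SE 0.27, adjusted p = 0.00169). Both sets of arrays were apart. Rbbp7, a histone chaperone, changed by -0.78 (adjusted p = 0.00824). Dnmt1, the maintenance methyltransferase, changed by -0.62 (adjusted p = 0.0617) and Hells, a remodeller that works with Cdca7, by -0.94 (adjusted p = 0.132).

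The supply of deoxynucleotides had 2 of 11 genes called lower, with a median of -0.73. Rrm2, the small subunit of ribonucleotide reductase, read 999, 1825 and 1652 at 14 h and 271, 650 and 796 at 21 h (log2 change -1.46, SE 0.33, adjusted p = 0.0223). The large subunit, Rrm1, read 1488, 2241 and 2184 and then 541, 1430 and 1341, a change of -0.9996 that missed the threshold (adjusted p = 0.0697). Slc29a1, a nucleoside transporter, changed by -0.79 (adjusted p = 0.0182), and Tk1, thymidine kinase, by -0.79 (adjusted p = 0.0659).

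**Figure D2:**
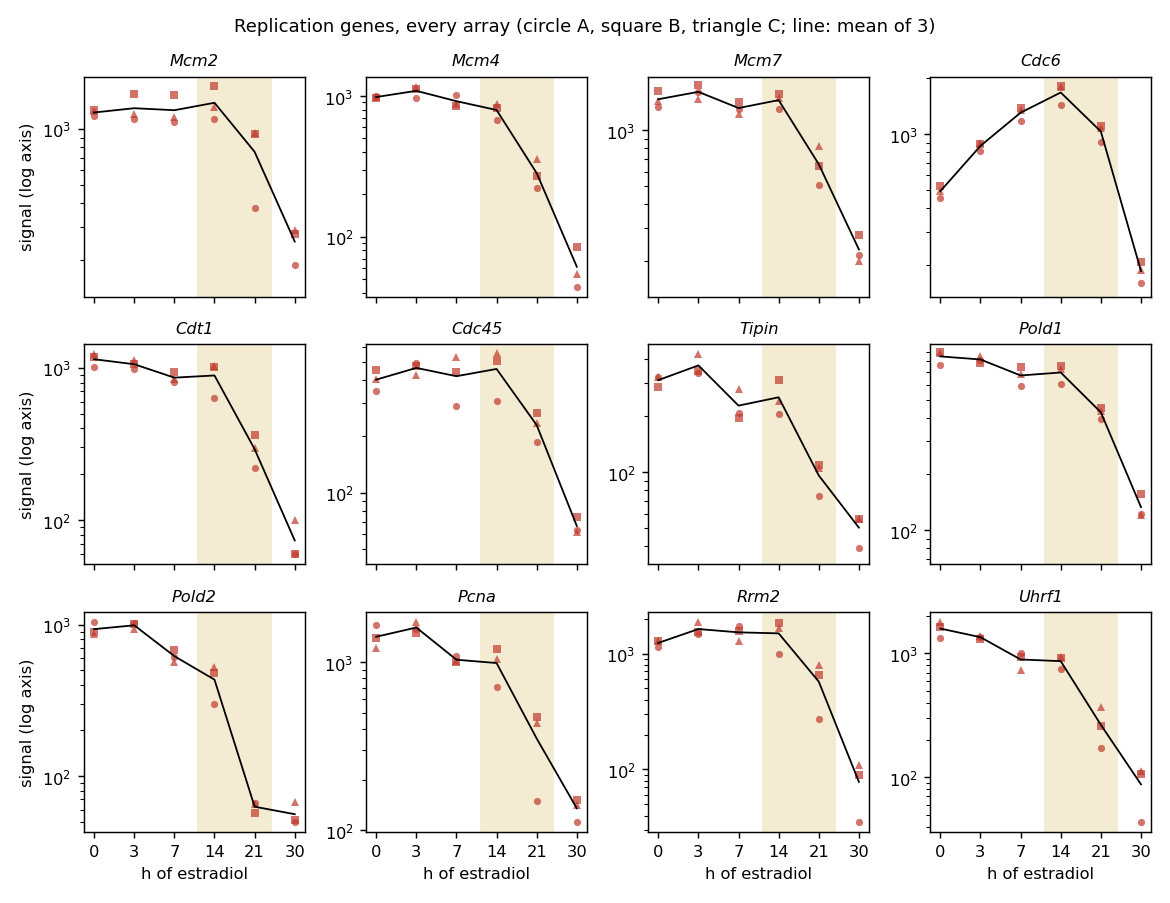
Signal of 12 replication genes on every array (y axis, log scale, deposited units) against hours of estradiol (x axis, sampled times evenly spaced); shapes are replicates A, B and C, the line is the mean of 3, and the shaded band holds the 14 h and 21 h arrays. In all 12 panels the 3 arrays at 21 h lie below the 3 at 14 h, and Pold2 is the gene whose 30 h mean is close to its 21 h mean.

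The number of replication calls depended on single arrays, as did the number of calls over all genes. It was 22 with all arrays, 12 without 14 h replicate B, 12 without 14 h replicate C and 13 without 21 h replicate A, and it rose to 30 without 14 h replicate A. With median scaling it was 9, with the median of the 71 genes at -0.66, and with a model of the 14 h and 21 h arrays alone it was 7. Over all 8251 genes, 137 were called lower with all arrays, 195 without 14 h A, 65 without 21 h A and 44 with median scaling. Probe sets called lower went from 171 to 92 without 14 h B and 72 without 14 h C. In the model of the 14 h and 21 h arrays alone they were 18. Of the 22, 11 stayed called whichever of the 6 arrays was left out. These were Pold2, Cdca7, Uhrf1, Pcna, Cdt1, Mcm4, Mcm7, Tipin, Cdc6, Pold1 and Rfc2. Of these 11, Cdc6, Pold1 and Rfc2 lost the call with median scaling (adjusted p 0.185, 0.187 and 0.0761), so 8 kept it in both checks. The calls of Mcm2 (adjusted p 0.116 to 0.172), Mcm3 (0.0626 to 0.109) and Rrm2 (0.102 to 0.121) were lost without 14 h B, 14 h C or 21 h A. Those of Mcm5 (0.0784 to 0.123), Mcm10 (0.107 to 0.193) and Slc29a1 (0.0577 to 0.0962) were lost without any of these or 21 h B. Cdc45 (0.0561 to 0.213) was lost in every case but 14 h A, Rpa2 (0.062 to 0.158) in every case but 21 h C, and Wdhd1 (0.0553 to 0.2) in all 6. Rbbp7 was lost without 14 h C (0.0604) and Topbp1 without 14 h B (0.0516). All of these kept a negative change.

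The promoters of the called replication genes are shown because the fall was shared by many of them and E2f factors are known to act on this class. RefSeq promoters of build GRCm38.p6, each running from 250 bases before to 50 after a gene start, were searched on both strands for TTTCCCGC, TTTGGCGC, TTTCGCGC and TTTGCCGC, the usual letters of E2f sites. Such letters stood in 744 of 32851 promoters (2.26%) and in 284 of 6576 genes on the array with a promoter in the table (4.32%). They stood in 9 of the 19 called replication genes with a promoter (47.4%), in 10 of 46 that were not called (21.7%), and in 1 of 34 mitosis genes (2.94%). Over all genes called lower they stood in 19 of 112 (17%), and over all called higher in 2 of 77 (2.6%). A match is a run of letters and not a measured binding site. The 30 bases around the first match in each of the 9 genes are printed on the strand of the gene, with matched letters in capitals:
Cdc6, chr11:98908002-98908031, plus strand: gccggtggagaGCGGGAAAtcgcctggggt
Cdca7, chr2:72476137-72476166, plus strand: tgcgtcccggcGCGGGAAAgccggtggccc
Cdt1, chr8:122568035-122568064, plus strand: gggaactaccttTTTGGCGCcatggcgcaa
Mcm3, chr1:20820275-20820304, minus strand: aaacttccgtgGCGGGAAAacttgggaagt
Mcm5, chr8:75109345-75109374, plus strand: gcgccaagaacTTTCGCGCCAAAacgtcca
Mcm7, chr5:138172030-138172059, minus strand: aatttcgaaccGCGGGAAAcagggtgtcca
Pold1, chr7:44548766-44548795, minus strand: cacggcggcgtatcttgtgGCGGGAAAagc
Topbp1, chr9:103305187-103305216, plus strand: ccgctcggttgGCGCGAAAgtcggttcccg
Uhrf1, chr17:56304117-56304146, plus strand: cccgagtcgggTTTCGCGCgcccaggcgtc
Cdca7, Cdc6, Mcm3, Mcm7 and Pold1 carried the same 8 letters, GCGGGAAA, the reverse complement of TTTCCCGC. In Mcm5 a pair of matches overlap. Mcm3 and Mcm7 hold a further match outside the bases printed. The first match began before the gene start in Cdc6, Cdca7, Mcm5, Mcm7, Topbp1 and Uhrf1 and after it in Cdt1, Mcm3 and Pold1. Mcm4, Rfc2 and Tipin have no entry in the promoter table. The replication gene with the largest fall, Pold2, has no match in either of its starts. Its promoter at the upstream start is printed in full and holds the letters CCAAT 3 times on the opposite strand, read as ATTGG. The first begins 47 bases before the gene start and the others after it. Such letters stood on either strand in 37.4% of all promoters and 42.5% of genes on the array:
Pold2, chr11:5878207-5878506, minus strand: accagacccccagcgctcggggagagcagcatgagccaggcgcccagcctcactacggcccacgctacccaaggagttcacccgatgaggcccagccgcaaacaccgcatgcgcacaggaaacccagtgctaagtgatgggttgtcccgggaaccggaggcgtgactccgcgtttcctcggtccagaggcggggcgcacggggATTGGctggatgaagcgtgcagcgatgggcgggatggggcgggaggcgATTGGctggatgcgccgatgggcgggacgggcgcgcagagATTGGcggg

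Before 14 h few replication genes were called. From 0 h to 3 h and from 3 h to 7 h, 0 replication genes were called lower, against 0.388% and 0.351% of all genes. Cdc6 and Dck, a deoxynucleoside kinase, were called higher in the first and Cdc6 in the second, against 1.02% and 0.945% of all genes. The median was 0.13 in the first, and -0.21 in the second, where 58 of 71 had a negative change. The summed signal was 46523 to 49792 at 3 h and 40108 to 44666 at 7 h. From 7 h to 14 h 2 of 71 were called lower, Cdca7 at -0.86 and Rbbp7 at -1.02, 1 was called higher, and the median was 0.00. Over all genes 1.35% were called lower and 1.53% higher at this step. From 21 h to 30 h 40 were called lower, with a median of -0.97, against 3.9% of all genes. The summed signal of the 71 genes was 40767 to 45108 at 0 h and 10893 to 13088 at 30 h. Cdc6, for example, changed by -2.29 in the last step (adjusted p = 5.54e-10), and Mcm3 by -2.38.

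The steps from 7 h to 14 h and from 14 h to 21 h are of equal length, so their difference was tested in the same limma model. The 14 h arrays enter both steps with opposite sign, which means that an array far off at 14 h moves both. The second step was the lower of the pair in 67 of 71 replication genes, and 29 of those reached an unadjusted p below 0.05. Of all 12422 probe sets, 761 reached it in either direction. The median difference was -0.63 over the 71 genes and -0.008 over all genes. Only Pold2 passed the adjusted threshold, with a difference of -1.90 (adjusted p = 0.013), and with median scaling 0 probe sets passed. Over all genes 2 were called in this direction (0.0242%).

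Few mitosis genes passed the test at 21 h. Of 40 measured, 1 was called lower (2.5%, against 1.66% of all genes), 17 were lower at an unadjusted p below 0.05 (7.81% of all genes were), and the median was -0.39. It was Stmn1, which destabilises microtubules, at -0.57 (adjusted p = 0.0211). Its call was lost without 14 h B, 14 h C or 21 h A (adjusted p 0.0606 to 0.109). Cdk1, the kinase that drives entry into mitosis, read 572, 830 and 899 at 14 h and 368, 432 and 482 at 21 h (-0.79, adjusted p = 0.232), and 13.5, 86.5 and 50.9 at 30 h. Top2a, which untangles chromosomes, changed by -0.48 (adjusted p = 0.366) and Kif20a, a motor of cell division, by -0.75 (adjusted p = 0.101). Plk4 changed by -0.95 (adjusted p = 0.107) and Smc4 by -0.44 (adjusted p = 0.153). Of the 40, 33 had a negative change. From 21 h to 30 h, the median was -1.70 and 35 of the 40 were called lower, against 3.9% of all genes. Whether mitosis and replication genes differ in this step was not tested as groups.

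Genes of ribosome assembly fell at both 7 h steps. Of 36 measured, 8 were called lower from 7 h to 14 h (median -0.60) and 10 from 14 h to 21 h (median -0.54). From 21 h to 30 h it was 5 (median -0.23), and 0 were called higher at these steps. The shares called lower were 22.2%, 27.8% and 13.9%, against 1.35%, 1.66% and 3.9% of all genes. Tsr1, needed for the small subunit, read 159, 162 and 200 at 14 h and 31, 44.6 and 62.6 at 21 h (-1.62, SE 0.24, adjusted p = 0.00114). Gar1, a part of the complexes that modify ribosomal RNA, read 611, 950 and 1365 and then 292, 245 and 348 (-1.57, SE 0.20, adjusted p = 0.000207). Both had already been called lower from 7 h to 14 h, Tsr1 at -1.03 and Gar1 at -1.12. The others were Fbl, the methyltransferase of ribosomal RNA, at -0.95, Nop56 at -0.87 and Nop58 at -1.01, which sit with it, Rrs1 at -1.16, Gnl3 at -0.85, Nhp2 at -0.90, Nop16 at -0.91 and Ncl, nucleolin, at -0.58. The number of calls was 5 without 21 h replicate A and 5 with median scaling, where 65 and 44 of all 8251 genes were called lower.

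**Figure D3:**
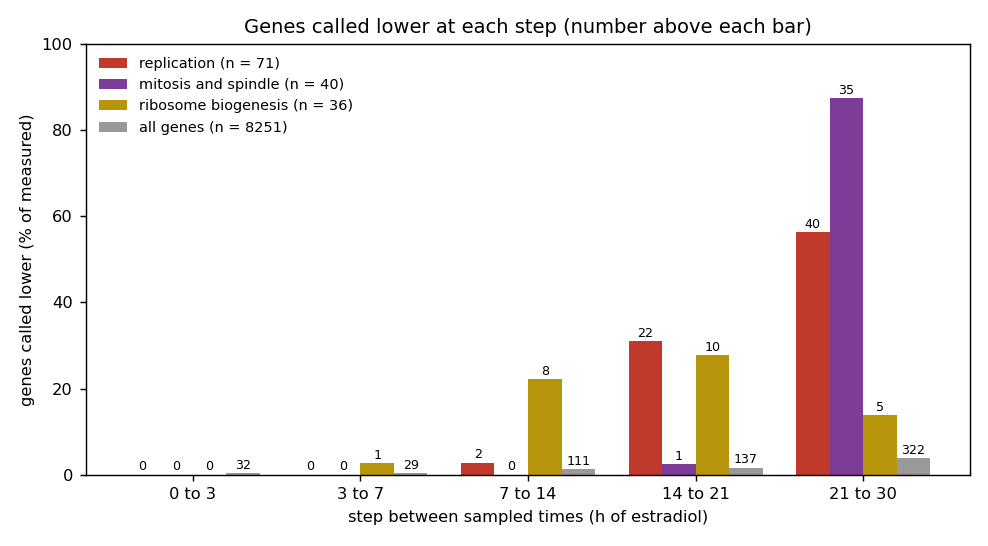
Bars give the share of measured genes called lower (y axis, percent) at each step between sampled times (x axis, h of estradiol), for replication, mitosis and ribosome assembly genes and for all genes, with the number of genes above each bar. Replication goes from 2 to 22 to 40 genes over the last 3 steps, mitosis from 0 to 1 to 35, and ribosome assembly from 8 to 10 to 5.

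Few regulators of the start of S phase passed the test, in which 1.66% of all genes were called lower and 1.16% higher. Of 10 E2f factors and pocket proteins, 9 had a negative change and 1 was called lower. It was Tfdp1, the DNA-binding partner of E2f factors, which read 519, 856 and 752 at 14 h and 176, 314 and 273 at 21 h (-1.39, SE 0.22, adjusted p = 0.0014). Its probe set name carries the suffix _r, so its target is uncertain. Other Tfdp1 probe sets, also of uncertain target, were not called and changed by -0.96 (adjusted p = 0.0905) and -0.03 (adjusted p = 0.987). Rbl1 changed by -1.02 (adjusted p = 0.0584), E2f8 by -0.78 (adjusted p = 0.113), Mybl2 by -0.66 (adjusted p = 0.119) and E2f1 by -0.39 (adjusted p = 0.45). Of 12 G1 and S cyclins and kinases 10 had a negative change and 1 was called lower. It was Cdk4 at -0.61 (adjusted p = 0.0187), a call lost without 14 h B, 14 h C or 21 h A (adjusted p 0.0626 to 0.12). Of 14 inhibitors of the cycle 1 was called higher, the stress gene Gadd45a, at 0.68 (adjusted p = 0.0462), lost whichever of the 6 arrays was left out (0.0538 to 0.16). Of 18 repair and checkpoint genes 3 were called lower: Parp1 at -1.68 (adjusted p = 0.00823), Exo1, a nuclease, at -1.54 (adjusted p = 0.00595) and Chek1, the kinase that guards stalled forks, at -0.93 (adjusted p = 0.0149). Parp1 lost its call without 14 h B (0.0568), and Chek1 without 14 h B, 14 h C, 21 h A or 21 h B (0.052 to 0.0779). The probe set of Parp1 is of a family type that may read related transcripts. Of 11 genes of purine and pyrimidine ring synthesis 2 were called lower, Gart at -1.09 and Ctps at -0.83, and both calls were lost without 14 h B, 14 h C or 21 h A (0.0524 to 0.0782 and 0.144 to 0.197).

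Of 16 progenitor regulators, 3 were called lower from 0 h to 3 h, 6 from 7 h to 14 h and 2 from 14 h to 21 h. Over all genes 0.388%, 1.35% and 1.66% were called lower at these steps. Myb, which keeps progenitors dividing, read 139, 103 and 150 at 14 h and 39.7, 0.9 and 19.5 at 21 h (-2.20, SE 0.29, adjusted p = 0.000322). A second Myb probe set read near 0 at both times. Lyl1, a blood stem cell factor, changed by -0.92 (adjusted p = 0.00777), lost without 14 h C (0.06). Gata2, an early factor that Gata-1 displaces, had fallen from 0 h to 3 h (-2.20) and again from 7 h to 14 h (-1.15), and changed by -0.14 in the later step (adjusted p = 0.884). Myc changed by -0.85 (adjusted p = 0.116). The array reading of Gata1, 334, 204 and 217 at 14 h and 341, 428 and 470 at 21 h, was not called (0.70, adjusted p = 0.0945), and whether it comes from the fusion or the disrupted gene was not tested.

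Other large falls lay outside these groups. Car1, carbonic anhydrase 1, read 830, 937 and 1203 at 14 h and 205, 190 and 336 at 21 h (-1.95, SE 0.18, adjusted p = 1e-05). It had been called lower from 7 h to 14 h (-1.80) and was so again from 21 h to 30 h (-1.69). Lgals9, galectin 9, read 244, 155 and 189 and then 14.1, 68.2 and 6.8 (-2.45, SE 0.34, adjusted p = 0.000487). Mtm1, a lipid phosphatase, gave -2.13 on a family-type probe set, whereas its other probe set went from 51.4 to 64.2 (0.33, adjusted p = 0.534), so the gene's direction is unsettled. Abcf2, an ATP-binding protein, changed by -1.86 (adjusted p = 0.0242), lost without 14 h B, 14 h C or 21 h A (0.0654 to 0.094). Srm, spermidine synthase, changed by -1.67 (adjusted p = 0.015), lost without 14 h C or 21 h B (0.07 to 0.0963), on a probe set that may read related transcripts. Snrp1c-ps2, also on a family-type probe set, changed by -1.88 (adjusted p = 0.00201). Its mean signal was 373 at 14 h, 84.8 at 21 h and 330 at 30 h. Of 15 heat shock and unfolded protein genes 2 were called lower, against 1.66% of all genes. Hsp90aa1, a cytosolic chaperone, changed by -0.89 (adjusted p = 0.0066, and 0.293 with median scaling) and Hspe1, a mitochondrial one, by -0.75 (adjusted p = 0.0455). The Hspe1 arrays overlapped and its call was lost in every case but 14 h A (0.0534 to 0.219). Ddit3 was called higher at 0.74 (adjusted p = 0.0357), lost in every case but 21 h B (0.0568 to 0.137).

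While replication genes fell, a smaller set of red cell genes rose. Slc4a1, which exchanges chloride and bicarbonate across the red cell membrane, read 287, 393 and 177 at 14 h and 1348, 3586 and 2985 at 21 h, an 8.08-fold rise (log2 change 3.01, SE 0.37, adjusted p = 0.000165). Every 21 h array was above every 14 h array. Alas2, the first and limiting enzyme of heme synthesis in red cells, read 2870, 2370 and 1855 and then 7116, 7005 and 7430 (1.52, SE 0.22, adjusted p = 0.000874). Urod, a later heme enzyme, read 1590, 1889 and 1555 and then 2639, 3062 and 2937 (0.68, SE 0.15, adjusted p = 0.0211), a call lost without 14 h C, 21 h B or 21 h C (0.0578 to 0.116). These were 2 of 9 heme genes and 1 of 13 membrane genes, against 1.16% of all genes called higher. Of 5 globin genes, 1 was higher at an unadjusted p below 0.05, against 7.25% of all genes. In limma 0 of the 5 passed the adjusted threshold, and the median was 0.48. Hbb-b2, an adult beta globin, had the smallest adjusted p of these (log2 change 0.57, adjusted p = 0.112).

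The promoter of Alas2 is shown because this gene is a known target of Gata-1. It was searched on both strands for AGATAA, for the same letters with G at the end, and for both of these with T as the first letter, which stood in 29.8% of all promoters, in 1586 of 6576 genes on the array (24.1%) and in 25 of 77 genes called higher (32.5%). The 1 match in Alas2, in capitals, lies before the gene start, and Urod has none in the same span:
Alas2, chrX:150547167-150547466, plus strand: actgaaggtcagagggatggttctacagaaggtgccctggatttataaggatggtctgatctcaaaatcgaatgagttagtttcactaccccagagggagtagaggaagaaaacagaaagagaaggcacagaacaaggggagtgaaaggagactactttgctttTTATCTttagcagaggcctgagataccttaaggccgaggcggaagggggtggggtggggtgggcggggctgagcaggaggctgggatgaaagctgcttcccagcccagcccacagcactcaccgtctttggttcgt

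Metallothioneins turned round at 14 h. Mt2, a metal-binding protein, read 6082, 6961 and 9879 in replicates A, B and C at 7 h. It read 2061, 2761 and 2936 at 14 h, then 5967, 9331 and 8090 by 21 h, so the rise of 1.53 (SE 0.22, adjusted p = 0.000764) followed a fall of similar size (-1.56). Mt1 took the same course, with 5575, 5699 and 8077 at 7 h, then 2016, 3144 and 3357, then 5748, 6704 and 6978 (1.12, SE 0.20, adjusted p = 0.00456). At 14 h all 3 arrays of both genes were below those of the neighbouring times. These were 2 of 14 genes of the metal and antioxidant list, against 1.16% of all genes called higher. The remaining 12 genes of the list were not called, and the median of the list was 0.008.

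Genes of autophagy and organelle clearance, by which red cell precursors remove mitochondria and other organelles, had 4 of 15 called higher (against 1.16% of all genes) and 0 lower, with a median of 0.36. Lamp2, a lysosomal membrane protein, read 185, 162 and 252 at 14 h and 341, 499 and 489 at 21 h (1.10, SE 0.20, adjusted p = 0.00533). Gabarap, which coats autophagosomes, read 2295, 2076 and 2178 and then 4053, 4081 and 4375 (0.77, SE 0.13, adjusted p = 0.00308). Ctsb, a lysosomal protease, changed by 0.76 (adjusted p = 0.00735; 0.0502 without 14 h C), and Atg12, a conjugation factor, by 0.85 (adjusted p = 0.0419), lost in every case but 21 h C (0.0614 to 0.207). Ncoa4, the receptor that sends ferritin to the lysosome and 1 of 9 iron genes, read 727, 699 and 655 and then 1467, 1610 and 1398 (0.98, SE 0.13, adjusted p = 0.000231). Of 17 erythroid transcription factors 2 were called higher, against 1.16% of all genes, 0 were called lower and 7 had a negative change. Klf3 changed by 0.89 (adjusted p = 0.0166), lost without 14 h C, 21 h B or 21 h C (0.0579 to 0.106). Nfe2 changed by 0.73 (adjusted p = 0.0185), lost without 14 h B, 14 h C, 21 h A or 21 h B (0.0579 to 0.0863). Gfi1b changed by -0.59 (adjusted p = 0.0623) and Lmo2 by -0.57 (adjusted p = 0.0791).

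**Figure D4:**
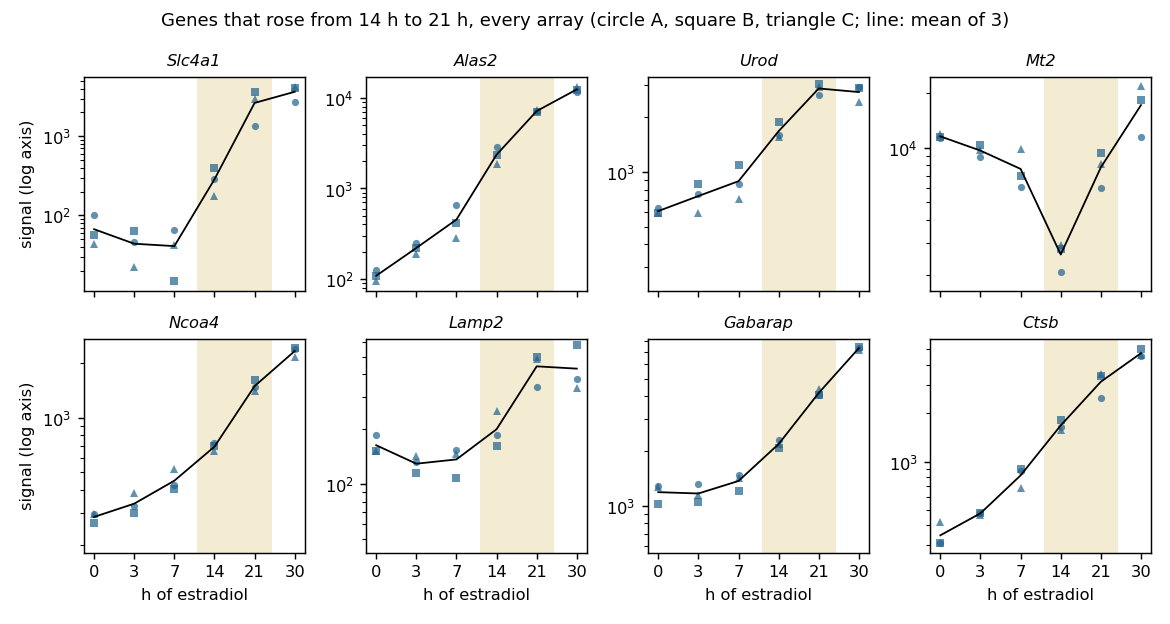
Signal of 8 genes called higher at 21 h on every array (y axis, log scale, deposited units) against hours of estradiol (x axis, sampled times evenly spaced); shapes are replicates A, B and C, the line is the mean of 3, and the shaded band holds the 14 h and 21 h arrays. In all 8 panels the 3 arrays at 21 h lie above the 3 at 14 h, and Mt2 is the gene whose 14 h arrays lie below its 7 h arrays.

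Further rises of similar size were less tied to red cell function. Dnajb2, a co-chaperone, read 285, 274 and 247 at 14 h and 541, 773 and 820 at 21 h (1.31, SE 0.17, adjusted p = 0.000293). Ddt, a relative of the cytokine Mif, read 363, 316 and 352 and then 875, 964 and 797 (1.29, SE 0.15, adjusted p = 0.000146). Washc2, a part of the complex that sorts endosomes, read 253, 245 and 276 and then 645, 666 and 654 (1.28, SE 0.14, adjusted p = 7.37e-05). The arrays of 14 h and 21 h did not overlap for these genes. Rragd, a GTPase that signals from the lysosome, changed by 1.19 (adjusted p = 0.00822; 0.0521 without 14 h C). Zfand5 changed by 1.30, lost without 14 h A, 14 h C, 21 h B or 21 h C (0.0683 to 0.0863), and Btn1a1 by 1.21, lost without 14 h B, 14 h C, 21 h A or 21 h B (0.0534 to 0.109). Padi2, an enzyme that modifies arginines, was dim at 19.8, 22.1 and 21.7 and then 74, 76.9 and 67.9 (1.33, adjusted p = 0.0457), and its call was lost whichever array was left out (0.0955 to 0.128). Irgm2 changed by 1.18 (adjusted p = 0.00456). Ifna15, on a dim family-type probe set with means of 9.9 and 40.8, changed by 1.19 (adjusted p = 0.0271). The Ifna15 call was lost whichever array was left out (0.0533 to 0.0963).

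Of 7 p53 target genes and of 13 immediate early genes 0 were called by limma in either direction, with medians of 0.07 and 0.41. At an unadjusted p below 0.05, 1 and 3 of them were higher and 0 lower, against 7.25% higher and 7.81% lower over all genes.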

How the data were processed

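RNA from 18 cultures was read on Affymetrix MG-U74Av2 arrays, 3 at each of 6 times. The deposited values are signal intensity values on a linear scale, per the labels. How probes were summarised and scaled is not given in the sources used here. Trimmed by 2%, array means ran from 150.094 to 150.124, and 0 values were below 0. The 66 control probe sets were left out of 12488. Names came from the platform table: 10833 probe sets had 1 symbol, 396 several and 1193 none, and 10817 were found in RefSeq.

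A constant of 16 was added, log2 taken and arrays quantile normalised. The model of limma 3.58.1 in R 4.3.3 had 1 mean for each time over all 18 arrays, 12 residual degrees of freedom and eBayes with an intensity trend. Log2 changes understate the change of dim genes, and their errors are standard errors (SE). A gene was represented by its brightest probe set with 1 symbol. The smallest p of an exact permutation of 3 against 3 is 0.1, so the limma tests rest on variance shared across probe sets. The script was tested on simulated data.

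Named by rule were the 12 largest rises and 12 largest falls with separate arrays, the called replication genes, genes whose steps differed and a few fixed genes. There were 29 lists, and in those outside replication the members with the smallest p were taken, called or not. Other genes, such as uncalled replication genes, E2f1, Cdk1 and Top2a, are given beside these, and some only as counts. The members and lists were chosen with earlier results of these data known. Alternatives changed the scaling, constant, filter, variance trend, weights, replicate block, arrays fitted and each array left out.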

Additional observations from a re-analysis of the deposited data

Results flagged for a closer look

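The change from 14 h to 21 h differed from the change from 7 h to 14 h, by the test of that difference in limma, in 6 probe sets, of which 4 had a single gene symbol. At an unadjusted p below 0.05 there were 761. All 4 share the 14 h arrays between both steps, and under median scaling 0 probe sets passed.

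For Mt2 the difference was 3.09 on the log2 scale and for Mt1 2.30, both from low 14 h arrays between higher neighbours. For Pold2 it was -1.90. For Foxa3, a liver transcription factor, it was -2.34, but its signals were dim, with arrays A, B and C of 10.4, 4.6 and 3.1 at 7 h, then 46.4, 32 and 22.5, then 11.2, 2.7 and 1.2, all near or below the array medians.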

How the results depend on the processing

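With arrays of the compared times alone, 19 probe sets were called higher and 18 lower, with 7 replication genes and 1 differing step. Without the intensity trend these were 72, 108, 14 and 1. With median scaling, 57 were called lower, with 9 replication genes and 0 differing steps. Leaving out 1 array in turn gave 47 to 121 higher, 72 to 239 lower, 12 to 30 replication genes and 1 to 10 differing steps. The cause was not tested, though fewer arrays were fitted in the first and last of these. Of 68 named genes that were called, 33 lost the call when some array was left out, 49 under some other setting, and 18 never; 0 of 132 named genes reversed.

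The replicate letters did not meet the rule for pairing, a correlation above 0.1 for every letter: same-letter deviations at 14 h and 21 h correlated at 0.205 (A), 0.104 (B) and 0.0338 (C). Replicate A nevertheless had the lowest summed signal of replication genes, and the lowest beta-actin 3' to 5' ratio, at all 6 times. With the replicate block, 136 probe sets were higher and 218 lower, with 32 replication genes and 7 differing steps. With 3 arrays at each time and probe sets such as that of Mcm6 near background, small changes of dim genes cannot be resolved.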

Other observations

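Several genes of the lysosome and its proton pump were called higher at 21 h. They were grouped after their values were seen, so the grouping has no test. Subunits of the vacuolar proton pump, which acidifies lysosomes, had a median of 0.38 over 15 measured, and 0 were called lower. Of the 15, 4 were called higher, against 1.16% of all genes. They were Atp6v0d1, at 832, 947 and 824 at 14 h and 1618, 2046 and 1761 at 21 h (0.96, SE 0.12, limma adjusted p = 0.000162), Atp6ap1 (0.93), Atp6v0b (0.85) and Atp6v1d (0.72). From 7 h to 14 h 4 of the 15 were called higher, against 1.53% of all genes, and from 21 h to 30 h 5, against 2.24%.

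Also called higher were Ctsa (0.83), a lysosomal protease, Npc2 (0.77), which carries cholesterol out of lysosomes, Creg1 (1.03), Pld3 (0.99) and Flcn (0.86), which acts on the Rag GTPases. Among genes called lower outside the lists were the nuclear transport genes Ran (-0.96), Ipo5 (-1.18) and Kpnb1 (-0.99), and Slbp (-0.78), which binds histone messages.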
